A study of Mus musculus with 24 samples.

Results

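Csf1r, Csf1, Csf2ra, Csf2rb, Csf3r and Cx3cr1 were followed in microglia sorted from single mouse retinas, across age, genotype and disease grade in the DBA/2J model of inherited glaucoma. These 6 genes, of 47729 gene IDs in the files, were chosen by name: they are the receptors for the colony-stimulating factors CSF1, CSF2 and CSF3, the ligand Csf1, and the fractalkine receptor Cx3cr1. The animals formed 3 groups of 5, sequenced with 1 library per retina, 24 in all. The first was DBA/2J at 12 months of age (10 retinas), with the genotype Gpnmb-/- Tyrp1b-/-. The second was DBA/2J of the same genotype at 6 months (5 retinas), labelled as early disease. The third was DBA/2J Gpnmb+ at 12 months (9 retinas), which is Gpnmb+/+ and shares Tyrp1b-/- with the other groups. No animal was treated. The labels give each 12-month DBA/2J retina a grade: 3 retinas from 2 animals were mild, 4 from 3 animals were moderate, and 3 from 2 animals were severe. Cells were taken as CD11b+, Fcrls+ and Ly6c-, a gate set to keep resident microglia and leave out infiltrating myeloid cells.

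Microglia need signalling through CSF1R, a receptor tyrosine kinase bound by CSF1 and IL-34, to survive and divide, and in the brain these ligands come largely from neurons and glia. The receptor for CSF2 (GM-CSF) pairs a specific alpha chain, encoded by Csf2ra, with a beta chain, encoded by Csf2rb, that also serves IL-3 and IL-5. The receptor for CSF3 (G-CSF), encoded by Csf3r, is best known for its part in neutrophil production. CX3CR1 is a G protein-coupled receptor on microglia for fractalkine, a ligand that neurons display on their surface and shed.

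Csf2rb has a close copy, Csf2rb2, which in the mouse encodes a beta chain for IL-3 and lies on the same chromosome, 15, at 78282507 to 78305721 on the minus strand. Because counts of the pair depend on how shared reads were divided, the stretches of coding sequence with the fewest and the most differences are shown, within 1 exon each. The coding sequences are 2691 bases long in Csf2rb and 2637 bases in Csf2rb2, and 95.2% of their 2631 aligned bases are identical. The first stretch, at chr15:78348577-78348696 on the plus strand in Csf2rb and chr15:78284752-78284871 on the minus strand in Csf2rb2, is the same in both genes over 120 bases. It is read here 5′ to 3′ along the coding strand, from the GENCODE transcripts.
Csf2rb and Csf2rb2, identical stretch: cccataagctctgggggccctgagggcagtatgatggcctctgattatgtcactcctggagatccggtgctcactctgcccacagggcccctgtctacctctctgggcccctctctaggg
The second stretch, at chr15:78338867-78338986 in Csf2rb and chr15:78294345-78294464 in Csf2rb2, holds 16 differences, which the capitals mark.
Csf2rb: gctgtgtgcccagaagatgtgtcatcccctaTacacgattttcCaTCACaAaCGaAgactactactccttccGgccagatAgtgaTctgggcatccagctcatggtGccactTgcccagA
Csf2rb2: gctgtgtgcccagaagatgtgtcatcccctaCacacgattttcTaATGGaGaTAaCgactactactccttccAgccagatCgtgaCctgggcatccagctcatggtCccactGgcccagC
A read from the first stretch cannot be assigned to 1 of the genes by its letters, while a read covering the second can. Of all windows of 75 bases in the Csf2rb transcript, 11.04% also occur in the Csf2rb2 transcript, and the longest run shared by the coding sequences is 242 bases. Values of Csf2rb and Csf2rb2 are therefore uncertain to the extent that reads were shared out between them.

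The 6 genes lie on separate chromosomes of the GRCm38 build and all are annotated as protein coding. Csf1r (ENSMUSG00000024621.15) spans positions 61100598 to 61132149 of chromosome 18 on the plus strand. Csf1 (ENSMUSG00000014599.10) spans 107741048 to 107760469 of chromosome 3 on the minus strand. Csf2ra (ENSMUSG00000059326.6) spans 61223957 to 61228429 of chromosome 19 on the minus strand. Csf2rb (ENSMUSG00000071713.4) spans 78325752 to 78353847 of chromosome 15 on the plus strand. Csf3r (ENSMUSG00000028859.14) spans 126024550 to 126044440 of chromosome 4 on the plus strand. Cx3cr1 (ENSMUSG00000052336.6) spans 119901616 to 120069879 of chromosome 9 on the minus strand.

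Retinas of 12-month DBA/2J held 1706745 to 20081047 counts over 10693 to 15037 genes. Those of 6-month DBA/2J held 12043862 to 17992997 counts over 13809 to 16706 genes, and those of Gpnmb+ 977873 to 14845259 counts over 3466 to 14460 genes. The 5 retinas with fewer than 10000 genes were all Gpnmb+, from animals 1, 2 and 3. Values without them are given for Csf1r and Cx3cr1, for some correlations and for the fold changes that turned. All 12 microglia markers had counts in each group, and their summed level was 19007 to 30974 CPM (counts scaled to 1000000 per library) in 12-month DBA/2J, 23699 to 26424 CPM in 6-month DBA/2J and 15691 to 25861 CPM in Gpnmb+ animals. Fcrls, the antigen of the sort, had counts in 18 of 24 retinas. Gpnmb had counts in 1 retina of Gpnmb+ animal 5 (15.1 CPM in that animal) and in no other library, so its level checks the genotype label of that animal alone.

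The order of the 6 genes was set on TPM, which scale each library to the same sum and correct for transcript length. Csf1r had a median level of 1597 TPM over the 24 retinas and Cx3cr1 one of 1564 TPM, followed by Csf3r at 193 TPM, Csf2ra at 92.9 TPM, Csf2rb at 56.4 TPM and Csf1 at 0.27 TPM. Csf1r ranked among the 100 genes with the highest TPM in 20 of 24 retinas and Cx3cr1 in 19 of 24. Csf1r was above Cx3cr1 in 19 of 24 retinas, with a ratio of their TPM between 0.447 and 2.19, so that these neighbours were not separated beyond the spread between retinas. Csf3r was above Csf2ra in 19 of 24 retinas and Csf2ra above Csf2rb in 22 of 24, and these neighbours overlapped too. Cx3cr1 was above Csf3r, and Csf2rb above Csf1, in all 24 retinas. The median ratio of Cx3cr1 to Csf1r TPM was 0.931 in 12-month DBA/2J, 0.951 in 6-month DBA/2J and 0.918 in Gpnmb+ retinas.

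None of the 6 genes passed the test between groups, which was edgeR's quasi-likelihood test with Benjamini-Hochberg adjustment over 12977 genes and a threshold of 0.05. For 12-month DBA/2J against Gpnmb+, 0 of the 6 genes and 0% of all genes were called. At an unadjusted p under 0.05 it held 0 of the 6 genes and 5.2% of all genes (675 genes), while DESeq2 called 108 genes and limma with a random animal effect 8. For 12-month against 6-month DBA/2J, 0 of the 6 genes and 0% of all genes were called. At an unadjusted p under 0.05 it held 0 of the 6 genes and 3.65% of all genes (474 genes), while DESeq2 called 60 genes and limma 5. For 6-month DBA/2J against Gpnmb+, 0 of the 6 genes and 0% of all genes were called. At an unadjusted p under 0.05 it held 0 of the 6 genes and 3.77% of all genes (489 genes), while DESeq2 called 57 genes and limma 40. None of the genes that DESeq2 or limma called was among the 6, and DESeq2 gave no adjusted p for Csf1 and Csf2ra in 12-month against 6-month DBA/2J. Animals of 12-month DBA/2J and Gpnmb+ did not overlap for 1.12% of all genes, those of 12-month and 6-month DBA/2J for 2.47%, and those of 6-month DBA/2J and Gpnmb+ for 1.12%, and in all 3 comparisons they overlapped for each of the 6 genes. The median log2 fold change of the 6 genes was 0.016 for 12-month DBA/2J against Gpnmb+, beside 0.054 over all genes tested. It was -0.033 for 12-month against 6-month DBA/2J, beside 0.0097, and 0.32 for 6-month DBA/2J against Gpnmb+, beside 0.025. The 3 comparisons share groups of animals, and 6-month DBA/2J differs from 12-month Gpnmb+ in age and genotype together, which cannot be told apart.

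**Figure D1:**
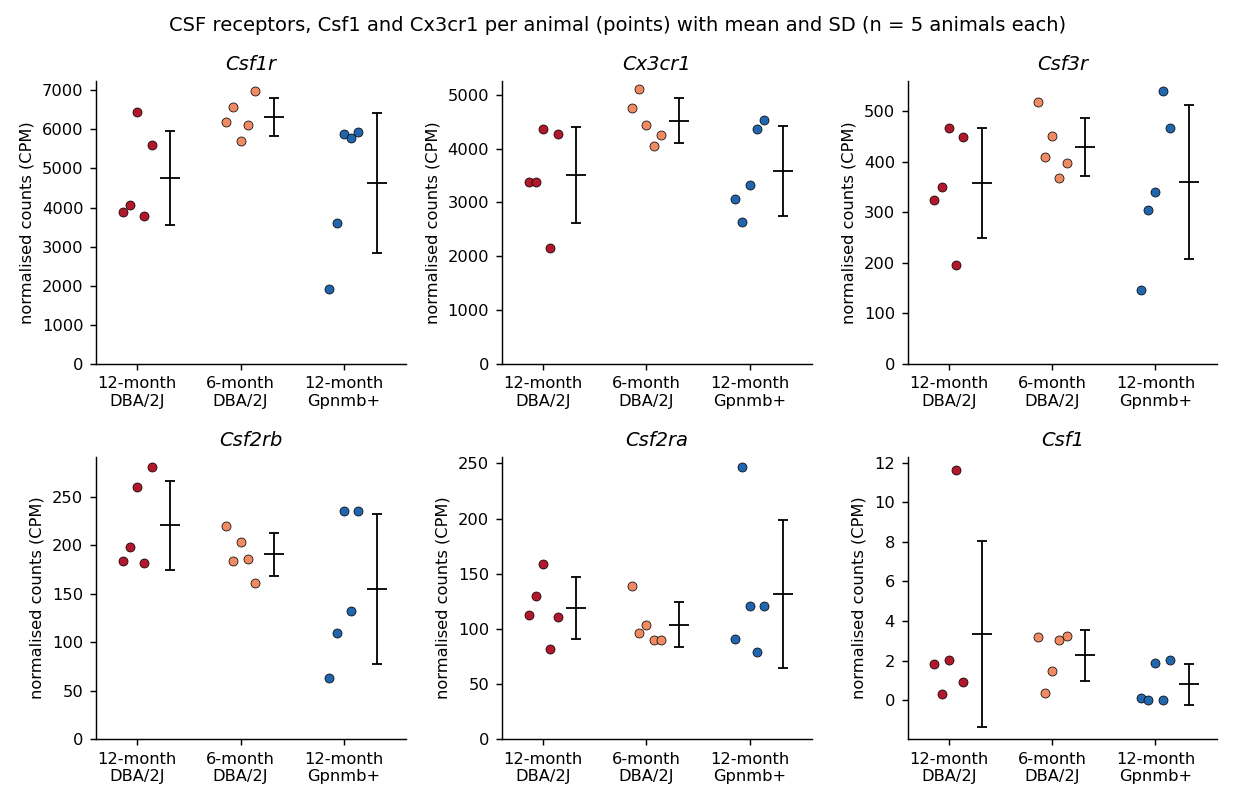
Normalised counts (CPM, vertical axis) of the 6 genes in each animal, with 12-month DBA/2J, 6-month DBA/2J and 12-month Gpnmb+ along the horizontal axis. Points are animals and bars are the mean and SD of 5 animals, and in every panel the groups overlap.

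Csf1r, the receptor for CSF1 and IL-34, was at 3881, 4065, 6443, 3784 and 5599 CPM in the 5 12-month DBA/2J animals. It was at 6179, 6561, 5698, 6113 and 6985 CPM in the 6-month DBA/2J animals, and at 1925, 3601, 5877, 5779 and 5944 CPM in the Gpnmb+ animals. In 12-month DBA/2J, 4 of 5 animals were below every 6-month animal, and only animal 3 lay within the 6-month range. Csf1r averaged 4754 ± 1198 CPM in 12-month DBA/2J, 6307 ± 487 CPM in 6-month DBA/2J and 4625 ± 1801 CPM in Gpnmb+ (SD, n = 5 each). The log2 fold change of 12-month against 6-month DBA/2J was -0.41 ± 0.24 (SE; 95% interval -0.92 to 0.10, unadjusted p = 0.111, edgeR adjusted p = 1.00). Against Gpnmb+ it was 0.040 ± 0.24 (interval -0.47 to 0.55) for 12-month DBA/2J and 0.45 ± 0.24 (interval -0.063 to 0.96) for 6-month DBA/2J. In these sorted bulk samples, fewer cells of a type and less RNA per cell cannot be told apart.

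Cx3cr1, the fractalkine receptor, was at 3379, 3375, 4368, 2159 and 4274 CPM in 12-month DBA/2J animals, and 4758, 5107, 4436, 4041 and 4251 CPM in 6-month DBA/2J animals. In Gpnmb+ animals it was 3057, 2626, 3322, 4369 and 4535 CPM. In 12-month DBA/2J, 3 of 5 animals were below every 6-month animal and the other 2 lay within the 6-month range. Cx3cr1 averaged 3511 ± 892 CPM in 12-month DBA/2J, 4519 ± 421 CPM in 6-month DBA/2J and 3582 ± 834 CPM in Gpnmb+ (SD, n = 5 each). For 12-month against 6-month DBA/2J its log2 fold change was -0.36 ± 0.19 (SE; interval -0.75 to 0.026, unadjusted p = 0.0658, edgeR adjusted p = 1.00). It was -0.029 ± 0.19 (interval -0.42 to 0.36) for 12-month DBA/2J against Gpnmb+ and 0.34 ± 0.19 (interval -0.055 to 0.73) for 6-month DBA/2J against Gpnmb+.

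Rod photoreceptor and mitochondrial RNA are given beside the comparison of ages, in which Csf1r and Cx3cr1 had negative values. The summed level of 12 rod genes had a median of 2036 CPM in 12-month DBA/2J, 455 CPM in 6-month DBA/2J and 782 CPM in Gpnmb+ animals. For 12-month against 6-month DBA/2J, 11 of the 12 rod genes had positive log2 fold changes, with a median of 1.22 beside 0.0097 over all genes tested, and 0 passed in edgeR. Against Gpnmb+, unlike the order of the summed medians, 2 of the 12 were positive in 12-month DBA/2J, with a median of -0.58 beside 0.054 over all genes tested. Mitochondrial genes held 1.43% to 3.34% of the counts of 12-month DBA/2J retinas, 0.641% to 1.49% of those of 6-month DBA/2J retinas and 1.21% to 4.71% of those of Gpnmb+ retinas. The part of either in the values of Csf1r and Cx3cr1 was not tested.

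Csf3r, the G-CSF receptor, was at 325, 350, 468, 196 and 450 CPM in 12-month DBA/2J animals. It was at 519, 410, 451, 369 and 398 CPM in 6-month DBA/2J animals and at 146, 304, 340, 541 and 468 CPM in Gpnmb+ animals. The Gpnmb+ animals spanned the whole range of 12-month DBA/2J, while 3 of 5 12-month DBA/2J animals were below every 6-month animal. Its log2 fold change was -0.0074 ± 0.30 for 12-month DBA/2J against Gpnmb+ (SE; interval -0.64 to 0.62) and -0.26 ± 0.30 for 12-month against 6-month DBA/2J (interval -0.89 to 0.37). Neutrophil markers were nearly absent beside it: their summed level over 10 genes was 0 to 0.136 CPM in 12-month DBA/2J, 0 to 8.41 CPM in 6-month DBA/2J and 0 to 2.18 CPM in Gpnmb+ animals. S100a8, S100a9, Ly6g, Mpo, Mmp8 and Retnlg were at 0 in every animal, and 9 of the 10 neutrophil genes were at 0 in 12-month DBA/2J, 9 in 6-month DBA/2J and 8 in Gpnmb+.

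Csf2rb, the beta chain, was the gene of the 6 with the highest positive fold change in 12-month DBA/2J against Gpnmb+ after Csf1. It was at 184, 198, 260, 182 and 281 CPM in 12-month DBA/2J animals, 220, 184, 203, 186 and 161 CPM in 6-month DBA/2J animals and 63.8, 110, 235, 132 and 235 CPM in Gpnmb+ animals. Gpnmb+ animals 3 and 5 lay within the 12-month DBA/2J range and the other 3 lay below it. Csf2rb averaged 221 ± 46.1 CPM in 12-month DBA/2J, 191 ± 22.2 CPM in 6-month DBA/2J and 155 ± 77.1 CPM in Gpnmb+ (SD, n = 5 each). The log2 fold change of 12-month DBA/2J against Gpnmb+ was 0.51 ± 0.31 (SE; interval -0.15 to 1.16, unadjusted p = 0.120, edgeR adjusted p = 0.999). Csf2rb2, the copy, averaged 164 ± 48.0 CPM in 12-month DBA/2J, 99.9 ± 31.6 CPM in 6-month DBA/2J and 77.7 ± 48.3 CPM in Gpnmb+. Its log2 fold change in 12-month DBA/2J against Gpnmb+ was 1.08 ± 0.41 with an unadjusted p of 0.0160, and it did not pass the adjustment (edgeR adjusted p = 0.675). The share of that difference that depends on how reads were divided between the copies was not tested. All retinas of Gpnmb+ animals 1 and 2 had fewer than 10000 genes. Csf2rb was at 63.8 and 110 CPM in these animals, and Csf2rb2 at 63.1 and 25.4 CPM. In Gpnmb+ animal 4, whose retina had 13364 genes, they were at 132 and 47.9 CPM.

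Csf2ra, the alpha chain of the GM-CSF receptor, was at 113, 130, 159, 82.3 and 111 CPM in 12-month DBA/2J animals and at 139, 96.6, 103, 90.4 and 89.9 CPM in 6-month DBA/2J animals. In Gpnmb+ animals it was at 91.2, 247, 121, 79.0 and 121 CPM, and animal 2 stood above every other animal. The groups overlapped throughout. Its log2 fold change was -0.15 ± 0.32 (SE; interval -0.82 to 0.53) for 12-month DBA/2J against Gpnmb+, 0.20 ± 0.32 for 12-month against 6-month DBA/2J and -0.34 ± 0.32 for 6-month DBA/2J against Gpnmb+.

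Csf1, the only ligand of the 6 genes, was close to the detection limit. It was at 1.83, 0.302, 2.05, 11.7 and 0.929 CPM in 12-month DBA/2J animals, 3.21, 0.339, 1.48, 3.06 and 3.23 CPM in 6-month DBA/2J animals and 0.0909, 0, 1.87, 0 and 2.01 CPM in Gpnmb+ animals. Counts were present in 6 of 10 12-month DBA/2J retinas, 5 of 5 6-month DBA/2J retinas and 3 of 9 Gpnmb+ retinas, and the highest count in a retina was 86. In the 10 retinas with no Csf1 count, a count of 0 allows up to 3 counts, or 0.212 to 3.07 CPM depending on the retina's total. The log2 fold change of 12-month DBA/2J against Gpnmb+ was 2.04 ± 1.51 (SE; interval -1.14 to 5.22, edgeR adjusted p = 0.999), the widest interval of the 6 genes. The other ligands were not seen in most retinas. Il34, the second CSF1R ligand, and Csf2, Csf3 and Il3 had no counts in any of 24 retinas. Cx3cl1, which encodes fractalkine, had counts in 1 retina (17 counts, in 12-month DBA/2J), as did Il5 (2 counts, in 12-month DBA/2J).

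**Figure D2:**
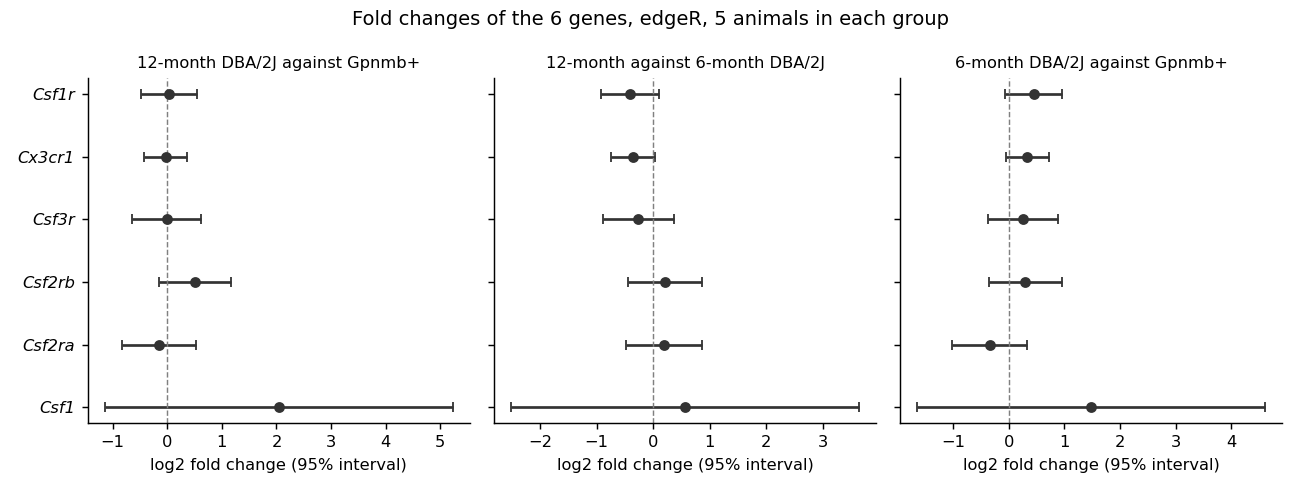
Log2 fold change (horizontal axis) of each of the 6 genes in the 3 comparisons of groups, with 95% intervals from edgeR, 5 animals in each group. Every interval includes 0, and the interval of Csf1 runs from -1.14 to 5.22 in 12-month DBA/2J against Gpnmb+.

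The grades were compared on sums per animal and grade, since animals 1 and 5 had eyes of different grade and entered with 2 sums each. In mild, moderate and severe retinas set against Gpnmb+, 0 of the 6 genes passed in edgeR over 15965 genes, where 0% of all genes were called. At an unadjusted p under 0.05, 0 of 6 were counted, against 5.42% of all genes for mild (865 genes), 8.47% for moderate (1353 genes) and 4.27% for severe (682 genes). DESeq2 called 599 genes for mild, 296 for moderate and 281 for severe retinas, and limma with a random animal effect 3 for mild, 13 for moderate and 32 for severe, none of them among the 6. The trend over the grades, scored 0, 1 and 2 over 7 sums of 5 animals, called 0% of 12019 genes and 0 of the 6. At an unadjusted p under 0.05 the trend held 0 of the 6 genes and 1.43% of all genes (172 genes), while DESeq2 called 26 genes and limma 2, and DESeq2 gave no adjusted p for Csf1.

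Moderate retinas had the lowest mean of the 3 grades for Csf1r, Cx3cr1, Csf3r and Csf2rb. Csf1r was at 3803 and 7538 CPM in mild, 3366, 4021 and 4102 CPM in moderate and 4303 and 6471 CPM in severe sums, so that the 3 moderate sums lay together and 1 mild sum lay among them. Cx3cr1 was at 2169 and 5839 CPM in mild, 1782, 3338 and 3063 CPM in moderate and 4344 and 4387 CPM in severe sums. Csf3r was at 197 and 539 CPM in mild, 113, 346 and 383 CPM in moderate and 448 and 470 CPM in severe sums. For Cx3cr1 and Csf3r both severe sums lay between the lower and the higher mild sum. Rod genes had values of both signs across the grades: against Gpnmb+, 11 of 12 had positive log2 fold changes in moderate retinas (median 0.81), and 0 of 12 in mild (median -1.94) and in severe retinas (median -1.47). Their part in the values of the 6 genes was not tested. The trend had a log2 change per grade of -0.045 ± 0.24 for Csf1r, 0.055 ± 0.27 for Cx3cr1 and 0.15 ± 0.31 for Csf3r (SE).

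Csf2rb was at 183 and 235 CPM in mild, 73.3, 196 and 320 CPM in moderate and 249 and 261 CPM in severe sums, with a trend of 0.14 ± 0.30 per grade. The log2 fold change of Csf2rb in severe against Gpnmb+ was 0.74 ± 0.50 (unadjusted p = 0.154, edgeR adjusted p = 0.982). Csf2ra was at 82.7 and 129 CPM in mild, 96.8, 128 and 138 CPM in moderate and 104 and 160 CPM in severe sums. Csf1 was at 0 and 11.7 CPM in mild, 0.298, 1.68 and 3.43 CPM in moderate and 1.07 and 2.06 CPM in severe sums, so the highest and the lowest value were both in mild retinas. The lowest adjusted p of the 6 genes over the 3 grades against Gpnmb+ was 0.756, for Cx3cr1 in moderate retinas, with a log2 fold change of -0.37 ± 0.27.

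**Figure D3:**
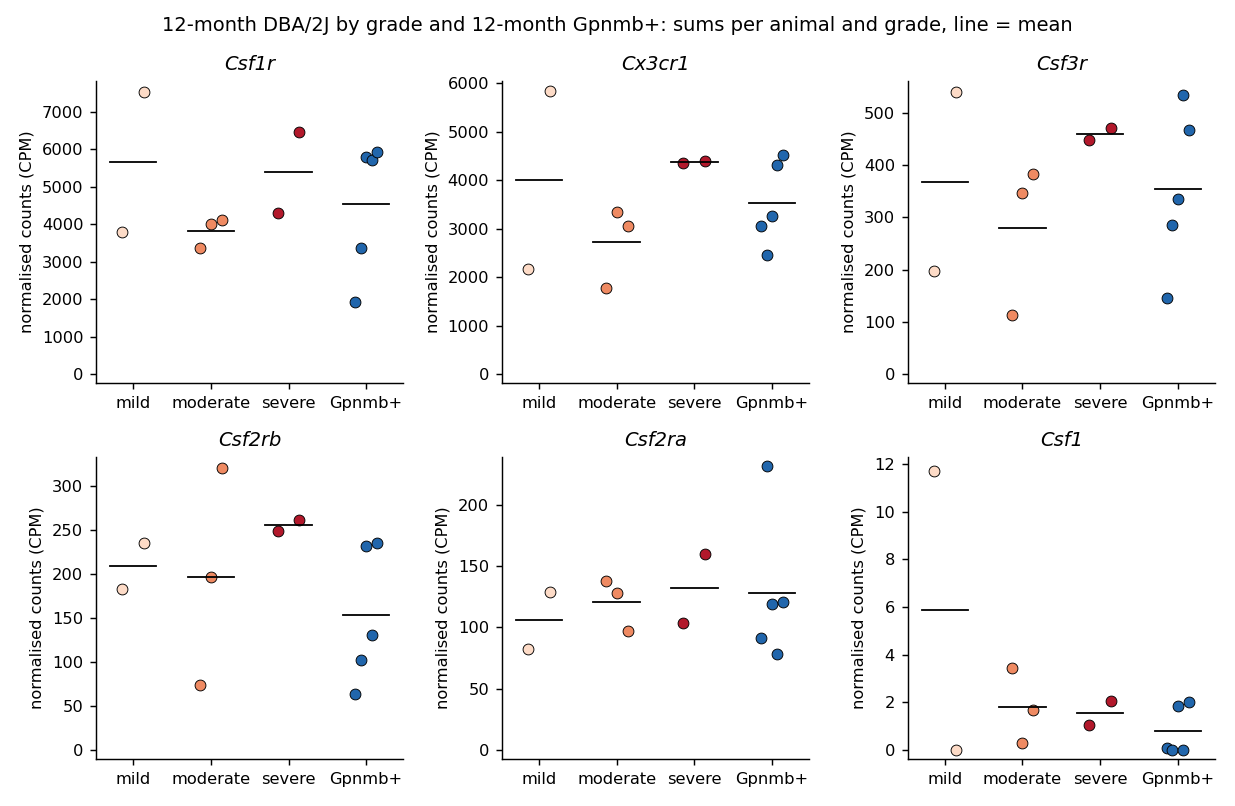
Normalised counts (CPM, vertical axis) of the 6 genes in mild, moderate and severe 12-month DBA/2J retinas and in 12-month Gpnmb+ retinas (horizontal axis). Points are sums per animal and grade and lines are means, and the 3 moderate sums of Csf1r lie between 3366 and 4102 CPM.

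In both sets of retinas described next, the median level of each of the 6 genes except Csf2ra was lower where fewer genes were detected. The 5 Gpnmb+ retinas with fewer than 10000 genes had 845 to 4363 CPM of Csf1r, against 5966 to 6755 CPM in the other 4 Gpnmb+ retinas. For Cx3cr1 the same retinas had 1664 to 3001 CPM, against 4101 to 4804 CPM, and for Csf3r 2.05 to 438 CPM, against 259 to 593 CPM. Within 12-month DBA/2J, the 5 retinas with the fewest genes (10693 to 11940) had 2765 to 4751 CPM of Csf1r and 1566 to 3172 CPM of Cx3cr1, against 3954 to 8091 CPM and 3224 to 6222 CPM in the 5 with the most genes (12473 to 15037). Csf3r was at 99.1 to 292 CPM in the 5 with the fewest genes and 327 to 574 CPM in the 5 with the most. For Cx3cr1 and Csf3r these sets of 12-month DBA/2J retinas did not overlap. The share of all genes without overlap in this split was not taken, so it cannot be said whether these genes stand out. The 10 retinas also come from 5 animals and are not independent of each other. Csf2rb had a median of 143 CPM in the 5 with the fewest genes and 241 CPM in the 5 with the most, and of 98.9 CPM in the Gpnmb+ retinas under 10000 genes and 192 CPM in the other Gpnmb+ retinas, with ranges that overlapped in both cases. Csf2ra had no such order, with 25.8 to 195 CPM in the 5 with the fewest genes and 92.9 to 137 CPM in the 5 with the most. This split was chosen after the values were seen, and the part of the number of genes detected in the differences between groups was not tested.

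Without the 5 retinas under 10000 genes, which left 3 Gpnmb+ animals, the log2 fold change of Csf1r in 12-month DBA/2J against Gpnmb+ was -0.36 ± 0.17 (unadjusted p = 0.0520, edgeR adjusted p = 0.673), in place of 0.040 ± 0.24. That of Cx3cr1 was -0.29 ± 0.19 in place of -0.029 ± 0.19. In 6-month DBA/2J against Gpnmb+, Csf1r was then at 0.044 ± 0.17 and Cx3cr1 at 0.069 ± 0.19. For 12-month against 6-month DBA/2J, from which no retina was left out, the fit without those retinas gave -0.40 ± 0.15 for Csf1r (unadjusted p = 0.0162, adjusted p = 0.423) and -0.36 ± 0.16 for Cx3cr1 (unadjusted p = 0.0424, adjusted p = 0.598). More of all genes had an unadjusted p under 0.05 in edgeR for this comparison in that fit, 1117 of 14282 genes, against 474 of 12977 in the main fit.

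**Figure D4:**
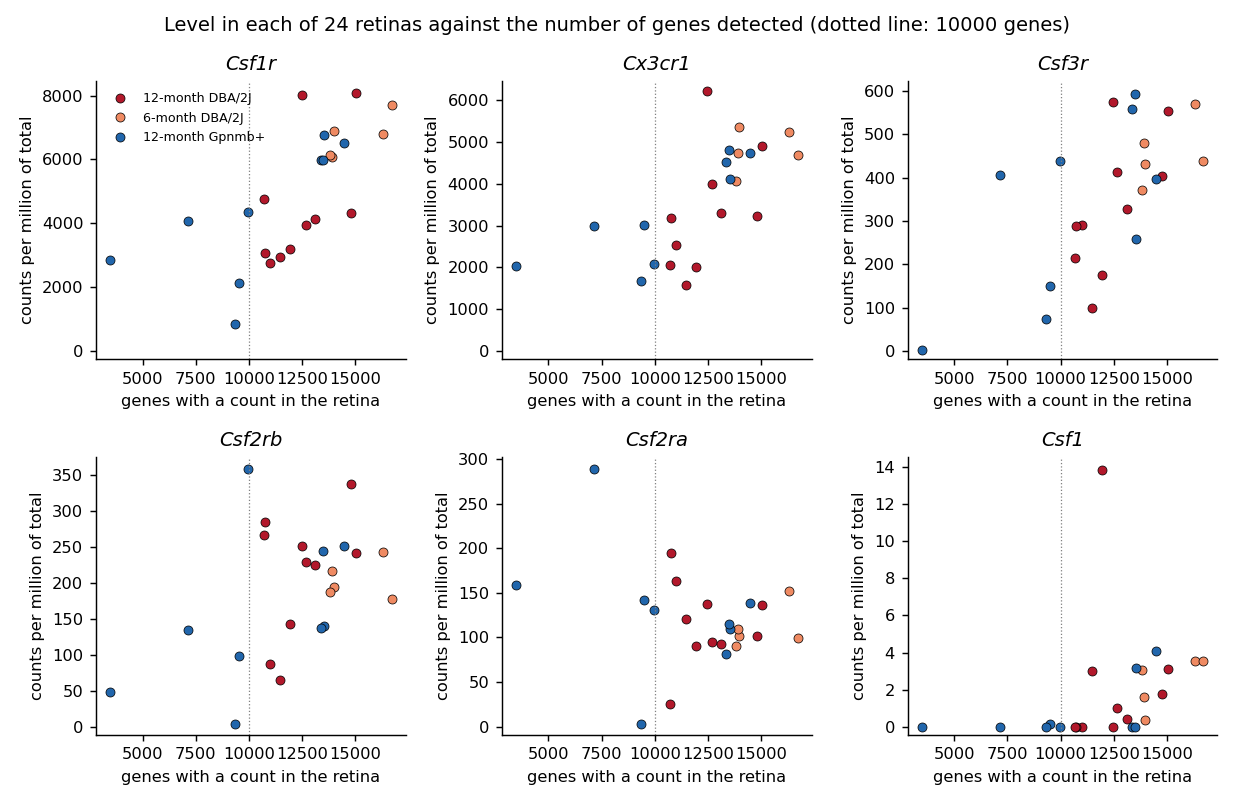
Level of the 6 genes (CPM of the library total, vertical axis) in each of 24 retinas against the number of genes with a count (horizontal axis), coloured by group. Left of the dotted line at 10000 genes lie 5 Gpnmb+ retinas, with at most 4363 CPM of Csf1r.

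Both eyes were sequenced in 9 animals, 5 of 12-month DBA/2J and 4 of Gpnmb+. The SD between the eyes of an animal, on the log2 scale with 1 CPM added, was 0.58 for Csf1r and 0.54 for Cx3cr1. The SD between animals, on the log2 scale but from CPM per animal with TMM-scaled totals, was 0.35 for Csf1r in 12-month DBA/2J, 0.11 in 6-month DBA/2J and 0.71 in Gpnmb+. By library total, the scaling used for the eyes, the SD of Csf1r between the 6-month DBA/2J retinas was 0.14. For Csf1r, the SD between eyes was thus above that between 6-month DBA/2J animals on either scaling. It was also above that between 12-month DBA/2J animals once their eyes were summed, a value on the other scaling. In 12-month DBA/2J animal 3, whose eyes were both severe, Csf1r was at 3058 CPM in the right eye (OD) and 8091 CPM in the left eye (OS). In animal 1, Cx3cr1 was at 1566 CPM in the moderate right eye and 3992 CPM in the severe left eye.

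The SD between eyes was 1.78 for Csf3r, 1.32 for Csf2rb and 1.29 for Csf2ra, and 1 Gpnmb+ animal carried much of each. Without the animal whose eyes differed most, a setting chosen after the values were seen, it was 0.68 for Csf3r (without animal 2), 0.79 for Csf2rb and 0.57 for Csf2ra (both without animal 1), beside 0.50 for Csf1r and 0.46 for Cx3cr1 treated in the same way. The median absolute log2 difference between eyes was 0.51 for Csf2ra, below 0.58 for Csf1r and 0.63 for Cx3cr1, while it was 0.76 for Csf3r and 1.35 for Csf2rb. Csf3r was at 2.05 CPM in the right eye and 405 CPM in the left eye of Gpnmb+ animal 2, whose right retina had the lowest total count of all, 977873. Csf2ra was at 142 CPM in the right eye and 3.56 CPM in the left eye of Gpnmb+ animal 1, and Csf2rb was at 98.9 CPM and 3.06 CPM in the same eyes. Both retinas of that animal had fewer than 10000 genes, and the left one had 7855012 counts in total, against 6856175 in the right one.

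**Figure D5:**
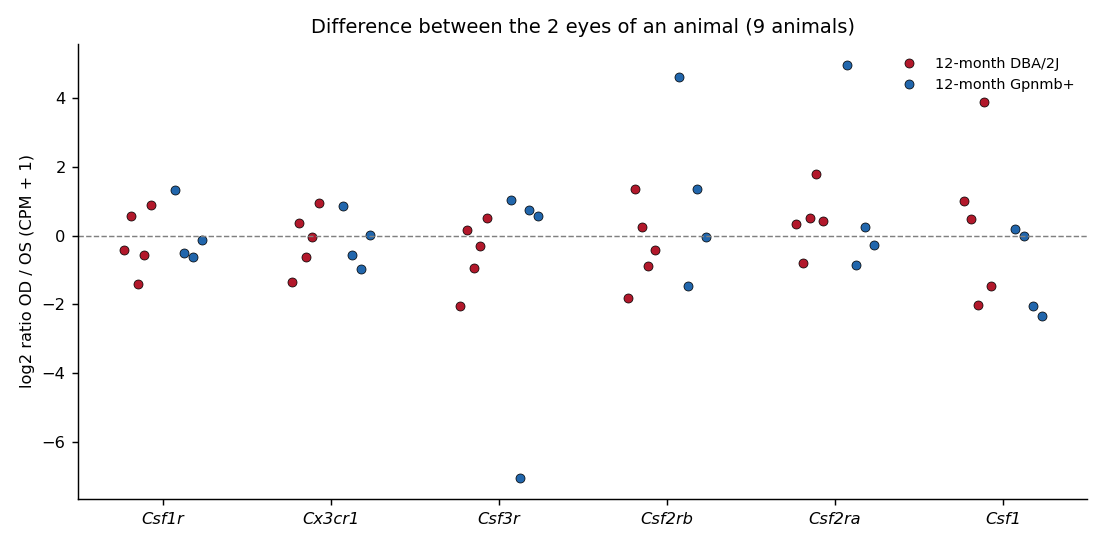
Log2 ratio of the right eye (OD) to the left eye (OS), on CPM + 1 (vertical axis), for each of the 6 genes in 5 12-month DBA/2J and 4 Gpnmb+ animals (points). All points of Csf1r and Cx3cr1 lie within 2 of 0, while Csf3r reaches -7.06 in 1 animal.

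Among the 15 pairs of the 6 genes, log2 CPM over the 15 animals had the highest Spearman's rho for Csf3r and Cx3cr1 and the highest Pearson r for Csf1r and Csf3r. For Csf3r and Cx3cr1, Pearson r was 0.80 (permutation p = 0.0010, Benjamini-Hochberg adjusted p = 0.0075) and Spearman's rho 0.86 (permutation p = 0.00011, adjusted p = 0.0016). Without the 2 animals farthest from the median of Csf3r, r was 0.83. Csf1r and Cx3cr1 had r = 0.71 (permutation p = 0.0049, adjusted p = 0.0219) and rho = 0.70 (permutation p = 0.0046, adjusted p = 0.0347), and r = 0.79 without the 2 farthest animals. Csf1r and Csf3r had r = 0.87 (permutation p = 0.00019, adjusted p = 0.0028) and rho = 0.65 (permutation p = 0.0106, adjusted p = 0.0530), and r = 0.70 without the 2 farthest animals. Deviations from the group means gave r = 0.78 for Csf3r and Cx3cr1, 0.61 for Csf1r and Cx3cr1 and 0.86 for Csf1r and Csf3r.

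Csf2rb followed Csf1r with r = 0.75 (permutation p = 0.0058, adjusted p = 0.0219) and Csf3r with r = 0.65 (permutation p = 0.0165, adjusted p = 0.0444), while rho was 0.39 (permutation p = 0.148, adjusted p = 0.277) and 0.49 (permutation p = 0.0687, adjusted p = 0.231). Both relations rested on 2 animals: r was 0.11 in each case without the 2 farthest. Csf1 and Csf2rb had r = 0.59 (permutation p = 0.0177, adjusted p = 0.0444) and rho = 0.32 (permutation p = 0.236, adjusted p = 0.393), with r = 0.46 without the 2 farthest. Csf2ra, the partner chain of Csf2rb, had r between -0.24 and 0.14 with the other 5 genes. Without the 5 retinas under 10000 genes, with 13 animals left and CPM by library total, r was 0.87 for Csf3r and Cx3cr1 and 0.88 for Csf1r and Cx3cr1. It was then 0.66 for Csf1r and Csf3r (permutation p = 0.0140, adjusted p = 0.0523) and 0.69 for Csf2ra and Csf2rb (permutation p = 0.0093, adjusted p = 0.0464). All points share the scaling to the library. In the sets of retinas described above, the medians of 5 of the 6 genes were lower where fewer genes were detected. The part of either in these correlations was not tested.

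The genes most like each of the 6 over the 15 animals, by Pearson r of log2 CPM among genes whose average log2 CPM was 5 or more, are given as a description. For Csf1r they were Anxa6 (r = 0.96), Fkbp15 and Adgrg1 (0.90 each). For Cx3cr1 they were Lyn (0.91), Prkcd (0.90) and Mpeg1 (0.87). For Csf3r they were Tapbp (0.91), Tbc1d9b (0.88) and Adgrg1 (0.87). For Csf2rb they were Atp8a1 (0.94), Itgb2 (0.89) and Ptpa (0.88), and for Csf2ra Gnb1 (0.83), Gm7964 and H2-Ab1 (0.79 each). For Csf1 they were Selenof (0.80), Atp6ap1 (0.79) and Pitpnc1 (0.78). Spearman's rho was below r for each named gene, from 0.54 for H2-Ab1 to 0.875 for Fkbp15. The 99th percentile of r over the genes compared was 0.83 for Csf1r, 0.77 for Cx3cr1 and 0.79 for Csf3r. It was 0.79 for Csf2rb, 0.68 for Csf2ra and 0.65 for Csf1.

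The pathways around the receptors were described by lists of genes. No gene of the lists passed in edgeR in the comparisons of groups or of grades. Of 19 genes of CSF1R signalling, 18 were tested between groups. Tyrobp, the adaptor DAP12 that works with CSF1R and TREM2, averaged 907 ± 341 CPM in 12-month DBA/2J, 568 ± 105 CPM in 6-month DBA/2J and 602 ± 247 CPM in Gpnmb+ (SD, n = 5 each). Its log2 fold change was 0.67 ± 0.29 for 12-month against 6-month DBA/2J, with an unadjusted p of 0.0346 (edgeR adjusted p = 1.00). At an unadjusted p under 0.05 that comparison held 1 of the 18 genes, beside 3.65% of all genes tested. The share of all genes was 5.2% in 12-month DBA/2J against Gpnmb+ and 3.77% in 6-month DBA/2J against Gpnmb+, where 0 of the 18 were counted. The median log2 fold change of the list was -0.38 for 12-month against 6-month DBA/2J, where 5 of 18 genes had positive values, beside a median of 0.0097 over all genes tested.

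Of 6 transcription factors linked to the control of Csf1r in macrophages, all were tested and none passed. Spi1, which encodes PU.1, averaged 103 ± 18.4 CPM in 12-month DBA/2J, 198 ± 93.4 CPM in 6-month DBA/2J and 142 ± 63.4 CPM in Gpnmb+, with a log2 fold change of -0.94 ± 0.39 for 12-month against 6-month DBA/2J (unadjusted p = 0.0263, edgeR adjusted p = 1.00). Cebpa averaged 64.8 ± 14.0 CPM in 12-month DBA/2J, 98.95 ± 35.4 CPM in 6-month DBA/2J and 87.9 ± 28.6 CPM in Gpnmb+, with a log2 fold change of -0.61 ± 0.33 for the same comparison (unadjusted p = 0.0841, edgeR adjusted p = 1.00). In that comparison 3 of the 6 factors had positive values, with a list median of -0.16 beside 0.0097 over all genes tested. At an unadjusted p under 0.05 in edgeR it held 1 of the 6, beside 3.65% of all genes tested.

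Of 11 genes of the JAK and STAT pathway downstream of the CSF2 and CSF3 receptors, all were tested and none passed. Tyk2, a Janus kinase, averaged 47.4 ± 14.5 CPM in 12-month DBA/2J, 46.6 ± 24.6 CPM in 6-month DBA/2J and 112 ± 53.8 CPM in Gpnmb+. The log2 fold change of Tyk2 was -1.24 ± 0.47 for 12-month DBA/2J against Gpnmb+ (unadjusted p = 0.0172, edgeR adjusted p = 0.695). Socs3, a feedback inhibitor of the pathway, averaged 331 ± 161 CPM in 12-month DBA/2J, 432 ± 195 CPM in 6-month DBA/2J and 537 ± 183 CPM in Gpnmb+, with a log2 fold change of -0.70 ± 0.36 for 12-month DBA/2J against Gpnmb+ (unadjusted p = 0.0680, edgeR adjusted p = 0.998). In that comparison 4 of the 11 genes had positive values, with a list median of -0.14 beside 0.054 over all genes tested. At an unadjusted p under 0.05 in edgeR it held 1 of the 11, beside 5.2% of all genes tested.

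Of 10 genes for CX3CR1 coupling and the shedding of its ligand, all were tested and none passed. Gnai3, an inhibitory G protein alpha subunit, averaged 27.1 ± 24.2 CPM in 12-month DBA/2J, 53.3 ± 20.004 CPM in 6-month DBA/2J and 102 ± 50.6 CPM in Gpnmb+. For 12-month DBA/2J against Gpnmb+ the log2 fold change of Gnai3 was -1.90 ± 0.62 (unadjusted p = 0.0071, edgeR adjusted p = 0.567). Adam10, a protease that sheds fractalkine, averaged 113 ± 35.5 CPM in 12-month DBA/2J, 185 ± 69.8 CPM in 6-month DBA/2J and 144 ± 12.2 CPM in Gpnmb+. Its log2 fold change was -0.71 ± 0.30 for 12-month against 6-month DBA/2J (unadjusted p = 0.0270, edgeR adjusted p = 1.00). At an unadjusted p under 0.05 in edgeR, each of these comparisons held 1 of the 10 genes. The share of all genes was 5.2% against Gpnmb+ and 3.65% between ages. Positive values were held by 2 of 10 genes against Gpnmb+ (median -0.27, beside 0.054 over all genes) and 5 of 10 between ages (median 0.0099, beside 0.0097).

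RNA of other cells was present beside the microglia. Summed over the 12 rod genes, whose medians are given above, it was 430 to 2688 CPM in 12-month DBA/2J, 208 to 2188 CPM in 6-month DBA/2J and 425 to 8951 CPM in Gpnmb+ animals. For 7 monocyte genes it was 10.7 to 94.9 CPM in 12-month DBA/2J, 13.3 to 40.9 CPM in 6-month DBA/2J and 1.54 to 33.3 CPM in Gpnmb+, with medians of 39.7 CPM in 12-month DBA/2J, 24.5 CPM in 6-month DBA/2J and 11.7 CPM in Gpnmb+. Ly6c2 was at 0 in all 12-month and 6-month DBA/2J animals. For 7 genes of border macrophages it was 3.12 to 187 CPM in 12-month DBA/2J, 0 to 77.1 CPM in 6-month DBA/2J and 0.0909 to 120 CPM in Gpnmb+, with medians of 34.5 CPM in 12-month DBA/2J, 2.10 CPM in 6-month DBA/2J and 24.5 CPM in Gpnmb+. Lists of Müller glia and astrocytes (6 genes), endothelium (8 genes), lymphocytes (9 genes) and ganglion cells (7 genes) reached at most 734, 110, 65.9 and 3.66 CPM in any animal. The part of this RNA in the levels of the 6 genes was not tested.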

How the data were processed

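RNA of sorted retinal microglia was measured with 1 library per retina. Per the file headers, the deposited tables hold expected counts (estimated read numbers, not always whole) and TPM for each gene. The submitters' processing notes list mm10, Salmon 1.4.0, R 4.0.3 and DESeq2 1.30.1 but assign them to no step, and the annotation release is not given in the sources used here. A deposited FPKM table with 24 columns of per-sample values was not used. The division of reads between near-identical genes was the authors' and bears on Csf2rb and Csf2rb2.

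Expected counts were rounded and summed per animal (15 animals), or per animal and grade (17 sums, of which 7 came from 12-month DBA/2J and entered the trend). Sums that share an animal were treated as independent. The labels do not tell of separate processing days, and p-values measure the spread between these animals. Of 47729 gene IDs, 47224 had a symbol in GENCODE's GRCm38 annotation, the source of coordinates and transcript sequences. Over 91 pairs of retinas within groups, chi-square divided by its degrees of freedom was at least 81.8, and no library was taken as a duplicate.

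edgeR 4.0.16 in R 4.3.3 gave the tests (quasi-likelihood F test, TMM, filterByExpr at 10 counts and a total of 15, two-sided, Benjamini-Hochberg over all genes of a comparison, threshold 0.05), and all 6 genes passed its filter. The SE is the log2 fold change over the square root of F. CPM per animal use TMM-scaled totals and CPM per retina the library total. Correlations were taken on log2 CPM (prior count 2), with two-sided tests of 100000 permutations. Limits from a count of 0 (3 counts) cover counting error only.

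Alternatives were DESeq2 1.42.0, RLE scaling, no filter, 50 counts in 5 sums, retinas with a random animal effect (limma 3.58.1), dropping 2 retinas with less than 20% of the median total, 5 retinas under 10000 genes or each animal, the retina of the larger total, the animal number as a block, the 2 compared groups alone, and log2(TPM + 1). Named were the 6 genes, up to 3 genes of a list with the smallest unadjusted p in a comparison, the 3 genes most like each of the 6, ligands and Gpnmb. Csf2rb2, Fcrls and markers at 0 were named after their values were seen. The 6 genes and the lists were chosen with earlier results of these data known.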

Additional observations from a re-analysis of the deposited data

Results flagged for a closer look

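In 3 cases a value stood apart from the rest of its group of 5 animals, past the limit of Dixon's test, which chance passes in about 1 of 20 groups. Csf1 was at 11.7 CPM in 12-month DBA/2J animal 4, against 0.302 to 2.05 CPM in the other animals of the group, and all of its counts came from the right eye (13.9 CPM of the library total). Csf2ra was at 139 CPM in 6-month DBA/2J animal 1, against 89.9 to 103 CPM in the other animals. Csf2ra was at 247 CPM in Gpnmb+ animal 2, against 79.0 to 121 CPM in the other animals, and both retinas of that animal had fewer than 10000 genes.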

How the results depend on the processing

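edgeR called 0 genes in each of the 7 comparisons. DESeq2 called 108 genes in 12-month DBA/2J against Gpnmb+, 60 in 12-month against 6-month DBA/2J, 57 in 6-month DBA/2J against Gpnmb+, 599 in mild, 296 in moderate and 281 in severe retinas against Gpnmb+, and 26 in the trend. With no filter on low counts, 2 genes were called in 12-month against 6-month DBA/2J, 31 in mild, 33 in moderate and 10 in severe retinas, and 6 in the trend. The retina of the larger total gave 2 genes in mild retinas. The random animal effect gave 8 genes in 12-month DBA/2J against Gpnmb+, 5 in 12-month against 6-month DBA/2J, 40 in 6-month DBA/2J against Gpnmb+, 3 in mild, 13 in moderate and 32 in severe retinas, and 2 in the trend. Under it the median log2 fold change over all genes was 0.59 in 12-month DBA/2J against Gpnmb+, -0.43 in 12-month against 6-month DBA/2J and 1.09 in 6-month DBA/2J against Gpnmb+. Leaving out 1 animal gave 0 to 1 genes in 12-month DBA/2J against Gpnmb+ (1 without 12-month DBA/2J animal 5), 0 to 2 in mild retinas (2 without 12-month DBA/2J animal 4) and 0 to 4 in moderate retinas (1 without 12-month DBA/2J animal 2, 4 without animal 5, 2 without Gpnmb+ animal 5). The causes of these shifts were not tested.

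None of the 6 genes was called in any of these fits. Of 413 log2 fold changes of the 6 genes under the other settings, 373 kept their direction and 40 turned, and of 342 that left out 1 animal, 306 kept it and 36 turned. With DESeq2, the log2 fold changes that turned were, in 12-month DBA/2J against Gpnmb+ -0.018 for Csf1r, and in severe against Gpnmb+ -0.12 for Csf2ra. With RLE scaling, the log2 fold changes that turned were, in 12-month DBA/2J against Gpnmb+ -0.018 for Csf1r, and in severe against Gpnmb+ -0.12 for Csf2ra. With no filter on low counts, the log2 fold changes that turned were, in 12-month DBA/2J against Gpnmb+ 0.026 for Csf3r and 0.0012 for Cx3cr1. With at least 50 counts in 5 sums, the log2 fold changes that turned were, in severe against Gpnmb+ -0.020 for Csf2ra. Without the 5 retinas under 10000 genes, the log2 fold changes that turned were, in 12-month DBA/2J against Gpnmb+ -0.36 for Csf1r and 0.22 for Csf2ra, in 6-month DBA/2J against Gpnmb+ 0.017 for Csf2ra, in mild against Gpnmb+ -0.10 for Csf1r, 0.054 for Csf2ra, -0.18 for Csf3r and -0.094 for Cx3cr1, in moderate against Gpnmb+ 0.25 for Csf2ra, and in severe against Gpnmb+ -0.19 for Csf1r and -0.13 for Csf1. With the retina of the larger total alone, the log2 fold changes that turned were, in 12-month DBA/2J against Gpnmb+ 0.24 for Csf3r and 0.013 for Cx3cr1, and in the trend over mild, moderate and severe 0.074 for Csf1r. With the 2 compared groups alone in the fit, the log2 fold changes that turned were, in 12-month DBA/2J against Gpnmb+ 0.014 for Csf3r. With each retina and a random animal effect, the log2 fold changes that turned were, in 12-month DBA/2J against Gpnmb+ 0.34 for Csf2ra, 0.32 for Csf3r and 0.0019 for Cx3cr1, in 12-month against 6-month DBA/2J -1.57 for Csf1, in 6-month DBA/2J against Gpnmb+ 0.14 for Csf2ra, in mild against Gpnmb+ 0.014 for Csf2ra, and in moderate against Gpnmb+ 0.28 for Csf2ra and 0.041 for Csf3r. On the log2(TPM + 1) scale of the deposited TPM, the log2 fold changes that turned were, in 12-month DBA/2J against Gpnmb+ -0.018 for Csf1r and 0.013 for Csf3r, and in 12-month against 6-month DBA/2J -0.034 for Csf1, -0.16 for Csf2ra and -0.15 for Csf2rb.

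Leaving out 1 animal gave -0.16 to 0.16 for Csf1r, -0.27 to 0.21 for Csf2ra, -0.21 to 0.22 for Csf3r and -0.12 to 0.11 for Cx3cr1 in 12-month DBA/2J against Gpnmb+. In 12-month against 6-month DBA/2J it gave -0.82 to 0.86 for Csf1. In moderate against Gpnmb+ it gave -0.22 to 0.24 for Csf2ra, -0.20 to 0.76 for Csf2rb and -0.64 to 0.047 for Csf3r. In severe against Gpnmb+ it gave -0.11 to 0.50 for Csf1r and -0.34 to 0.36 for Csf2ra. In the trend over mild, moderate and severe it gave -0.26 to 0.27 for Csf1r, -1.35 to 1.43 for Csf1, -0.0077 to 0.65 for Csf3r and -0.10 to 0.53 for Cx3cr1. In mild against Gpnmb+ it gave -0.30 to 0.70 for Csf1r, -6.64 to 3.82 for Csf1, -0.69 to 0.026 for Csf2ra, -0.89 to 0.58 for Csf3r and -0.74 to 0.70 for Cx3cr1. In 6-month DBA/2J against Gpnmb+ it gave -0.46 to 0.011 for Csf2ra.

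With CPM by library total, r was 0.28 for Csf1r and Csf2ra, 0.021 for Csf1 and Csf2ra, 0.032 for Csf1 and Cx3cr1, and 0.19 for Csf2ra and Cx3cr1. With CPM by library total and without the 5 retinas under 10000 genes, r was -0.020 for Csf1r and Csf1, 0.30 for Csf1r and Csf2ra, 0.067 for Csf1 and Csf2ra, -0.45 for Csf1 and Csf3r, and 0.46 for Csf2ra and Cx3cr1. In the same setting r of Csf1r and Csf2rb was 0.23 (permutation test, adjusted p = 0.549), that of Csf2rb and Csf3r 0.48 (adjusted p = 0.229 by permutation) and that of Csf1 and Csf2rb 0.16 (adjusted p = 0.696 by permutation).

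With the animal number as a replicate block, 4 genes were called in moderate and 1 in severe retinas against Gpnmb+, none of the 6 genes among them, and 0 in the other 5 comparisons. Under the block the log2 fold changes that turned were, in 12-month DBA/2J against Gpnmb+ 0.014 for Csf3r, in mild against Gpnmb+ 0.048 for Csf2ra, -0.24 for Csf3r and -0.020 for Cx3cr1, and in the trend over mild, moderate and severe 2.02 for Csf1 and -0.41 for Csf2ra. Deviations of animals with the same number in different groups correlated at -0.046 to 0.088, so the numbers were not taken to pair animals across groups. In the trend, which holds 12-month DBA/2J alone, the block is the animal itself. The change per grade within animals then rests on animals 1 and 5, whose eyes differ in grade. The genes that kept their direction there were at 1.10 for Csf2rb, 0.75 for Csf3r, 0.18 for Cx3cr1 and -0.26 for Csf1r. The 10 retinas with no Csf1 count held 977873 to 14181676 counts in total, and every retina with a higher total had Csf1 counts. At a lower total, 1 retina of 4983359 counts held 15 of Csf1. The part of depth in the detection of Csf1 was not tested.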
